A study of Rattus norvegicus with 40 samples.

Results

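Gene expression was compared between the injured and the opposite L5 dorsal root ganglion (DRG) of rats whose left L5 spinal nerve had been ligated. The comparison held 10 of the 40 arrays of the series, 5 of ipsilateral and 5 of contralateral L5 DRGs, chosen by the labels for procedure, segment and side. The rats were male Sprague-Dawley rats. In the spinal nerve ligation (SNL) model the L5 spinal nerve is tied tightly just distal to its ganglion, so the sensory neurons of that ganglion lose their connection to the periphery. The DRGs were taken 4 weeks after surgery, each was extracted on its own, and RNA of each was hybridized to 1 Affymetrix rat genome array. The control was the L5 DRG of the other side of the same 5 rats, numbered 4, 8, 9, 18 and 48 in the labels, and not a DRG of an uninjured animal. Sham rats had the same operation without the ligature, and their L5 DRGs (5 arrays per side) are set beside the results, as are the L4 DRGs of the SNL rats, whose own spinal nerve was not tied. Whole ganglia were measured, which hold neurons, satellite glia, Schwann cells, fibroblasts, vessels and immune cells, so a gene's signal can fall because fewer cells of a type were present or because each held less of its RNA, and these cannot be told apart here.

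A sensory neuron whose axon is cut stops making much of what it needs to sense and to signal at its peripheral and spinal terminals. In its place it makes transcription factors, neuropeptides and cytoskeletal proteins of axon regrowth. Around it satellite glia proliferate, macrophages gather and connective tissue is remodelled. Activating transcription factor 3 (Atf3) and the peptides galanin, neuropeptide Y and VIP are the classic markers of this state, and calcitonin gene-related peptide, substance P, somatostatin, TRPV1 and the sodium channels Nav1.8 and Nav1.9 are the classic products of intact nociceptors.

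The deposited values are linear signals, which were analysed as log2(signal + 16). All log2 differences are ipsilateral minus contralateral on that scale, which understates the change of a dim gene, and they carry the SE of the limma fit. Means of signals carry the SD over 5 arrays. Where signals of single arrays are listed they follow the order of rats 4, 8, 9, 18 and 48. A gene with several probesets is represented by its brightest one, and genes and probesets with an adjusted p under 0.05 were called. The spread between arrays of a side was small, with a median SD of 0.15 on the log2 scale on the contralateral and 0.16 on the ipsilateral side. The p-values measure this spread, which may be partly technical.

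The defining genes of sensory ganglia were present on both sides. Advillin (Avil), an actin-binding protein of peripheral sensory neurons, went from 1065 ± 69.7 to 465 ± 67.2 and the homeobox factor Drgx from 476 ± 25.8 to 106 ± 13.01. Scn10a and Scn11a, which encode Nav1.8 and Nav1.9, had contralateral signals of 325 ± 11.6 and 1118 ± 53.9, and the sensory neuron factors Isl1 and Pou4f1 had 65.4 ± 9.36 and 53.4 ± 8.49. Peripherin (Prph), a neurofilament of peripheral neurons, measured 1672 ± 212 on the contralateral and 2183 ± 138 on the ipsilateral side. The homeobox factor Tlx3 was dim on both sides, at 1.41 to 5.18 and 1.49 to 13.5, and was not called (0.26 ± 0.13, adjusted p = 0.107), although it was without ipsilateral rat 18 (0.37). Satellite glia were represented by Fabp7, at 266 ± 15.2 on the contralateral side.

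The sides also differed in array quality. The median signal of an array was 36.5 to 37.7 on the contralateral and 42.1 to 43.8 on the ipsilateral side, and in sham L5 it was 28.6 to 29.7 and 34.9 to 36.6. The log2 ratio of 3′ to 5′ GAPDH signal, which is higher in degraded RNA, lay at 0.89 to 1.10 on the contralateral and 1.45 to 1.72 on the ipsilateral arrays, and the same ratio of actin at 3.38 to 3.92 and 4.46 to 5.09 (exact permutation test, two-sided, p = 0.00794 for each, which is the lowest value that 5 against 5 can give). In sham L5 the sides overlapped for both ratios. The GAPDH ratio lay there at 0.91 to 1.13 on the contralateral and 1.01 to 1.25 on the ipsilateral arrays. The actin ratio lay at 4.08 to 4.37 and 4.22 to 4.60. In SNL L4 and sham L4 the GAPDH ratio was higher on the ipsilateral side without overlap. In the order of array numbers the 5 ipsilateral SNL L5 arrays came before the 5 contralateral ones, so side and array order cannot be told apart. The SNL L5 arrays form an array series of their own, and the 30 other arrays another. The part of these differences in the results was not tested.

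Differences between the sides ran through the whole array. Of 14217 genes, 5043 (35.5%) were higher and 2704 (19%) were lower in the ligated DRG. At least 2-fold differences were found for 472 genes (3.32%) above and 355 genes (2.50%) below the contralateral side. Over all 31042 probesets, 9408 (30.3%) were higher and 5230 (16.8%) were lower, so that 64.3% of the calls were rises. Quantile normalization gave 6618 rises and 6158 falls (51.8% rises), and scaling to equal medians gave 5221 and 7584 (40.8% rises). The direction of the many small differences therefore rests on how the arrays are scaled. The median gene differed by 0.13, and list medians below are read against that value. List counts below are read against 35.5% higher and 19% lower over all genes. With equal medians 3008 genes were higher and 3980 lower, and with quantile normalization 3977 and 2980. Signals of the sides did not overlap for 10522 probesets (33.9%). Of 4525 genes with several probesets, 326 had probesets called in both directions.

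A large number of calls was not particular to the ligated ganglion, since in sham L5 the sides differed for 50.3% of probesets. The median size among the called probesets was 0.37 there and 0.46 in SNL L5. Over probesets, 765 were at least 2-fold higher and 4 at least 2-fold lower in sham L5, beside 644 and 747 in SNL L5, so 2-fold rises were more numerous in sham and 2-fold falls in SNL. Over genes, 131 (0.921%) were at least 2-fold higher and 3 (0.0211%) at least 2-fold lower in sham L5, beside 472 (3.32%) and 355 (2.50%) in SNL L5. By this count 2-fold rises, too, were more numerous in SNL, the reverse of the order over probesets. The difference between the SNL and sham comparisons, which share no arrays, was tested for each probeset. The SNL L5 and sham L5 arrays belong to different array series, so procedure and array series cannot be told apart in this difference. Over genes, the SNL difference lay above the sham difference for 4551 (32%) and below it for 2614 (18.4%).

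Genes of skeletal muscle gave the largest falls, and their signal was far higher in the contralateral L5 DRGs than in any other group of the series. They are treated as possible carry-over of muscle tissue in the contralateral samples, which was not tested. Of 43 muscle genes measured, 37 were lower on the ligated side, 33 of them at least 2-fold, 3 were higher and 3 were not called. The list median was -1.99, and in sham L5 it was 0.17. Myl11, the regulatory light chain of fast muscle myosin, had signals of 1071, 1159, 1144, 1104 and 1110.4 on the contralateral and 2.07, 4.25, 3.67, 9.204 and 1.68 on the ipsilateral arrays. Every contralateral array was high and every ipsilateral array was near the bottom of the scale, with a log2 difference of -5.82 ± 0.08, adjusted p = 5.67e-18. The fast troponins Tnnc2 and Tnni2 went from 983 ± 112 to 8.56 ± 4.34 and from 804 ± 53.3 to 23.1 ± 4.24, and the myosin light chain Myl1 from 974 ± 56.6 to 41.3 ± 5.40. Muscle creatine kinase (Ckm) measured 273, 280.1, 296, 297 and 268 on the contralateral arrays and 1.69, 14.9, 1.67, 11.6 and 0.703 on the ipsilateral ones, again without overlap (-3.81 ± 0.15, adjusted p = 1.27e-12). Skeletal actin (Acta1) measured 860.5 ± 122 on the contralateral and 61.4 ± 5.15 on the ipsilateral side.

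The sum over the 43 muscle genes was 11651 ± 434 on the contralateral and 2231 ± 77.3 on the ipsilateral arrays, a ratio of 5.22 contralateral to ipsilateral (exact permutation test, two-sided, p = 0.00794). The contralateral sums ran from 11328 to 12384 and the ipsilateral sums from 2123 to 2341. Over all other arrays of the series the sums lay between 1666 in contralateral sham L5 and 4828 in ipsilateral SNL L4. The ligated DRGs were thus within the range of the other groups and the contralateral DRGs far above it. The muscle genes were also alike from rat to rat. Among the 25 with a contralateral mean of at least 100, the coefficient of variation over the 5 contralateral arrays had a median of 7.02% (range 2.11 to 18.2%), and over all probesets of that brightness the median was 7.59%. Not every muscle gene followed. The fast myosin heavy chain Myh1 rose from 1044 ± 73.3 to 1274 ± 60.2 (log2 difference 0.28 ± 0.06, sham 0.38), while another of its probesets fell by 0.21, and sarcolipin (Sln), a regulator of the muscle calcium pump, differed by 0.42 with overlapping sides. With equal medians neither of the 2 was called.

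**Figure D1:**
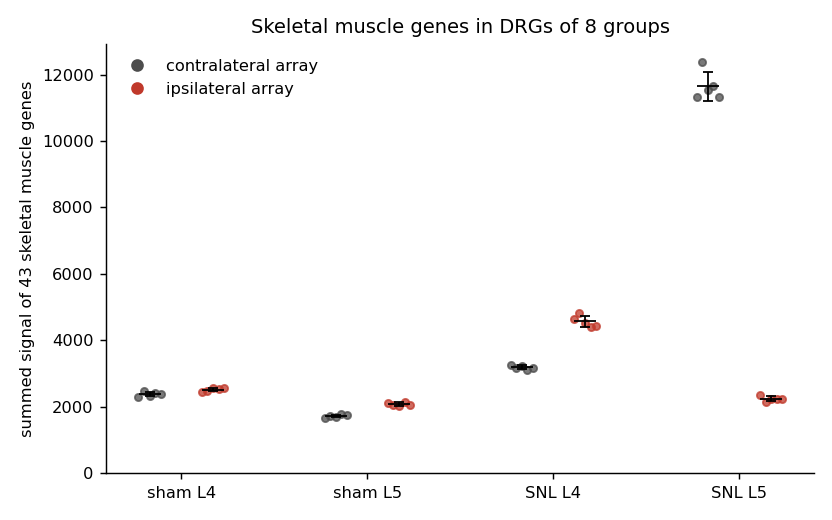
Sum of the MAS 5 signals of the 43 skeletal muscle genes on each of the 40 arrays (points; vertical axis, linear scale from 0), by procedure, segment and side, with the group mean and SD (n = 5). The 5 contralateral SNL L5 arrays lie at 11328 to 12384, above all 35 other arrays, and the ligated L5 DRGs lie at 2123 to 2341, among the other groups.

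Because the contralateral side carried this excess, each large difference was also placed among the other 6 groups of the series, a step chosen after the data were seen and with arrays of another array series. Of the 355 genes at least 2-fold lower, 34 had a contralateral mean at least 2-fold above the highest of the other 6 groups, and 27 of these were on the muscle list. The other 7 were Car3, Adss1, Cox8b, Tpm1, Myoz2, Pdlim3 and Hjv, which are also known from striated muscle. Carbonic anhydrase 3 (Car3) went from 565 ± 26.4 to 95.3 ± 7.14 and Hjv, the hemojuvelin coreceptor, from 74.4 ± 6.15 to 12.7 ± 4.76. Log2 differences were -2.06 ± 0.10 for the muscle adenylosuccinate synthase Adss1, -2.17 ± 0.12 for the cytochrome oxidase subunit Cox8b, -1.28 ± 0.10 for the Z-disc protein Myoz2 and -1.43 ± 0.11 for Pdlim3. Tropomyosin 1 (Tpm1) differed by -1.54 ± 0.06, and another probeset of it rose by 0.35. By contrast, for 279 of the 355 genes the ligated DRG lay below the lowest of the other groups, for 112 of them at least 2-fold. Of the 472 genes at least 2-fold higher, 449 lay above the highest other group on the ligated side, 126 of them at least 2-fold, and for 1 the contralateral mean lay at least 2-fold below the lowest. Without the 34 genes, 321 genes were at least 2-fold lower.

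Among the genes that rose most were secreted peptides, and VIP led them. Vasoactive intestinal peptide (Vip) had signals of 5.36, 4.85, 6.63, 2.82 and 5.32 on the contralateral arrays and 1244, 1194, 1300.2, 1192 and 1182 on the ipsilateral arrays. The contralateral arrays were near the bottom of the scale and the ipsilateral ones were within a narrow range at about the same level, giving a log2 difference of 5.88 ± 0.06, adjusted p = 1.27e-19. Neuropeptide Y (Npy), which is hardly made by intact sensory neurons, measured 35.2, 38.2, 28.6, 33.4 and 26.7 and 2849, 2419, 2484, 2401 and 2483 on these sides (5.72 ± 0.07, adjusted p = 5.24e-19). The peptide galanin (Gal) measured 60.7, 79.3, 90.3, 102 and 87.3 on the contralateral and 1815, 1553, 1656, 1696 and 1606 on the ipsilateral arrays (4.08 ± 0.09, adjusted p = 8.38e-16), so all 5 ligated DRGs lay far above all 5 controls for each of the 3 peptides. In sham L5 the same peptides differed by 2.26, 1.92 and 0.72.

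Reg3b, a secreted lectin of the regenerating gene family that injured sensory neurons make, had contralateral signals of 33.3, 27.2, 31.4, 24.8 and 19.5 and ipsilateral signals of 805, 838, 891, 780.1 and 861. The log2 difference was 4.31 ± 0.08, adjusted p = 1.09e-16, and the sham difference 1.08. Atf3, the injury transcription factor, measured 73.4, 76.8, 78.6, 61.5 and 89.04 on the contralateral arrays and 1112, 1172, 1146, 1178 and 1214 on the ligated side, which were clearly separate (3.69 ± 0.07, adjusted p = 9.85e-17). The chemokine Cxcl14 was close to 0 on the contralateral side, at 7.04, 3.08, 0.453, 0.651 and 1.23, and measured 181, 178, 204, 196 and 185 after ligation (3.48 ± 0.11, adjusted p = 4.56e-14). Its second, dim probeset was not called. Sprr1a, a cornified envelope protein that regrowing axons contain, rose from 5.87, 4.65, 4.78, 3.84 and 6.55 to 134, 139, 172, 172 and 149 (2.998 ± 0.10, adjusted p = 1.22e-13), without overlap. Csrp3, a LIM protein of muscle that injured sensory neurons also make, rose from 20.8 ± 1.34 to 334 ± 6.55 (3.25 ± 0.06) although muscle genes moved the other way. Stac2, an adaptor of calcium channels, rose from 9.27 ± 4.56 to 208 ± 15.97 (3.17 ± 0.12), and Lce1f, a gene of the late cornified envelope family, from 18.6 ± 2.53 to 237 ± 4.78 (2.87 ± 0.07).

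Immune and glial genes made up the rest of the 15 largest rises. Major histocompatibility complex (MHC) class II was represented by RT1-Da, at 119, 134, 131, 135 and 139 on the contralateral and 1048, 1023, 1091, 1093 and 1069 on the ligated side (2.87 ± 0.05, adjusted p = 7.09e-17), RT1-Db1, which rose from 136 ± 8.37 to 938 ± 80.4, and the invariant chain Cd74, from 334 ± 10.2 to 2429.8 ± 116 (2.80 ± 0.05). The complement protease C1s rose from 83.2 ± 8.29 to 659 ± 37.95 (2.77 ± 0.07). Glial fibrillary acidic protein (Gfap), which satellite glia begin to make after nerve injury, measured 14.1, 13.04, 16.01, 13.2 and 20.3 and 188, 186, 189.6, 187 and 185 (2.70 ± 0.08, adjusted p = 5.08e-14). In sham L5 the log2 differences of these 5 genes were 0.13, -0.07, 0.04, -0.45 and -0.09.

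The promoter windows of the 6 genes among these largest rises that are secreted peptides or classic regeneration genes and for which RefSeq held a window are shown, because they rose together by up to 5.88 on the log2 scale. Each runs 5′ to 3′ from 250 bases before to 50 bases after the transcription start, in the GRCr8 assembly. Capitals mark matches, on either strand, to the letters TGANTCA (AP-1, the site of Jun and Atf3 family dimers), TGACGTCA (cAMP response element, CRE) or TTCNNNGAA (STAT).
Vip (chr1:44470230-44470529, plus strand): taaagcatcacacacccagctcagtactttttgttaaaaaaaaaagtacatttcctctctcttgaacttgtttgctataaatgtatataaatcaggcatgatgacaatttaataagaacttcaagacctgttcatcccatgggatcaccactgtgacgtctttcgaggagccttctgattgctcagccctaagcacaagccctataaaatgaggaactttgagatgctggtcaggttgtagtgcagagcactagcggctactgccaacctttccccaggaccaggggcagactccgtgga
Npy (chr4:80211861-80212160, plus strand): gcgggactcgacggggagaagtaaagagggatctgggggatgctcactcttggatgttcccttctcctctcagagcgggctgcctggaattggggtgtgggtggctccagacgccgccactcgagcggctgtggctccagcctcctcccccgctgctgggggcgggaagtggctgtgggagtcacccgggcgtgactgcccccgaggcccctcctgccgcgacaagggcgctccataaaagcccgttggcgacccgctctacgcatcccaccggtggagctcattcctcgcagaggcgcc
Gal (chr1:210084523-210084822, minus strand): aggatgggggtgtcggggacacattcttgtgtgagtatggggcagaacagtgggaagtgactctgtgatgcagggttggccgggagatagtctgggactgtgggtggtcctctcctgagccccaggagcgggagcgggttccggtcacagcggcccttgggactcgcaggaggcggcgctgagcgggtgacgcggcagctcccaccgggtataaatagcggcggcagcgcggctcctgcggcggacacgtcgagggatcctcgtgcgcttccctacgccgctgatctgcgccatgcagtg
Reg3b (chr4:112419526-112419825, plus strand): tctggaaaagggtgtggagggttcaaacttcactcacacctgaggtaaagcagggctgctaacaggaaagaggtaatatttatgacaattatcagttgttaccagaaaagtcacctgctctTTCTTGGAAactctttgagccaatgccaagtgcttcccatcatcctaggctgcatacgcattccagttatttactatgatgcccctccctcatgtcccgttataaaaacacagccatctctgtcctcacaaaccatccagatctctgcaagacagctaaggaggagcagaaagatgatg
Cxcl14 (chr17:8322900-8323199, plus strand): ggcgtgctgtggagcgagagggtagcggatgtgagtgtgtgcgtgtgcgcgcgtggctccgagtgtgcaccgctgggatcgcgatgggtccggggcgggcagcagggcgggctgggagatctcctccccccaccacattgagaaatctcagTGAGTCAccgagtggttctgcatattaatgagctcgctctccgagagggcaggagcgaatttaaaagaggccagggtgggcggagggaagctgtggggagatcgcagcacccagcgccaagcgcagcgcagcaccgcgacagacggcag
Sprr1a (chr2:180752576-180752875, minus strand): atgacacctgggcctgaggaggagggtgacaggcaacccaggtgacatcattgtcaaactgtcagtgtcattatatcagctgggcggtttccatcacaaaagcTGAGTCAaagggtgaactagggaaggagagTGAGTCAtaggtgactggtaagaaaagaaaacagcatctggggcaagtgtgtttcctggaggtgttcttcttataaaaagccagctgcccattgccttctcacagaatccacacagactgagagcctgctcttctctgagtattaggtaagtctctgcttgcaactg
Counted from the start, the Reg3b window held 1 STAT match at bases -129 to -121. Cxcl14 held 1 AP-1 match at bases -99 to -93, and Sprr1a held 2, at bases -147 to -141 and -117 to -111. No match was found in the windows of Vip, Npy and Gal, which says only that these letters are not there. Of 27457 promoters of the annotation, 7.33% held the AP-1 letters, 8.68% the STAT letters and 1.91% the CRE letters. Among the 363 windows of genes at least 2-fold higher, 37 (10.2%) held AP-1, 35 (9.64%) STAT and 4 (1.10%) CRE. Among the 287 windows of genes at least 2-fold lower, the counts were 12 (4.18%), 14 (4.88%) and 13 (4.53%). Over the 11700 windows of measured genes the shares were 5.43%, 6.99% and 2.86%. A match describes the letters of a window and not the binding of a factor.

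Apart from muscle genes, the largest fall was that of parvalbumin. Parvalbumin (Pvalb), a calcium-binding protein of proprioceptive neurons and also of fast muscle, measured 1478, 1368, 1122, 1162 and 1261 on the contralateral arrays and 19.9, 13.3, 19.4, 16.4 and 24.2 on the ligated side (-5.22 ± 0.09, adjusted p = 4.24e-17). The sides were far apart on every rat, and in sham L5 the difference was 0.14. In the 6 other groups, whose muscle sums were lower, Pvalb lay between 938 and 1407 on every array, so its contralateral SNL L5 level was within or near that range and the ligated level was far below it. The serotonin receptor subunit Htr3b fell from 293, 291, 299, 311 and 302 to 17.6, 8.83, 12.9, 10.1 and 7.51 (-3.54 ± 0.09, adjusted p = 6.72e-15). Scn11a, the gene of the nociceptor sodium channel Nav1.9, measured 1067, 1178, 1082, 1175 and 1089 on the contralateral arrays and 125, 101, 136, 131 and 115 on the ligated side (-3.05 ± 0.07, adjusted p = 9.38e-16). As the choice of these genes required, no ipsilateral array reached the lowest contralateral one for either gene.

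A pair of the 15 largest falls were auxiliary subunits of A-type potassium channels. Kcnip4, a calcium-binding subunit of Kv4 channels, fell from 779, 776, 853, 826 and 787 to 65.4, 77.5, 61.1, 57.9 and 51.01 (-3.39 ± 0.07, adjusted p = 9.38e-16), and Dpp10, another auxiliary subunit, from 167, 172, 163, 189 and 199.99 to 3.96, 10.5, 3.48, 2.67 and 1.20 (-3.27 ± 0.11, adjusted p = 3.01e-13). Somatostatin (Sst), a peptide of itch-related neurons, measured 343, 393, 395, 429 and 420.2 on the contralateral and 51.9, 38.5, 46.04, 40.2 and 39.95 on the ipsilateral arrays (-2.80 ± 0.08, adjusted p = 1.37e-14). Neuromedin B (Nmb) measured 416, 419.6, 399, 381 and 419.8 and 45.5, 37.01, 36.1, 43.5 and 37.4 (-2.92 ± 0.07, adjusted p = 1.12e-15). For these 4 genes as well the sides did not overlap, as the choice required. The neuronal pentraxin Nptx1, a synaptic organizer, fell from 1740.04 ± 158 to 176 ± 9.58 (-3.19 ± 0.06), the channel-like protein Ano3 from 592 ± 24.3 to 41.1 ± 8.17 (-3.42 ± 0.08), secretogranin II (Scg2), a protein of dense-core vesicles, from 357 ± 16.8 to 43.1 ± 11.1 (-2.68 ± 0.11) and the proteoglycan Spock3 from 353 ± 31.9 to 38.4 ± 12.9 (-2.79 ± 0.13). Tmem255a fell from 239.6 ± 26.8 to 15.1 ± 4.91, C2h3orf80 from 613 ± 31.2 to 63.1 ± 8.10 and the calmodulin-like Calml4 from 193 ± 23.3 to 10.6 ± 5.10. Hapln4, a link protein of perineuronal matrix, fell by 2.72 on its brightest probeset, and its other 2 probesets, both dim, were not called.

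**Figure D2:**
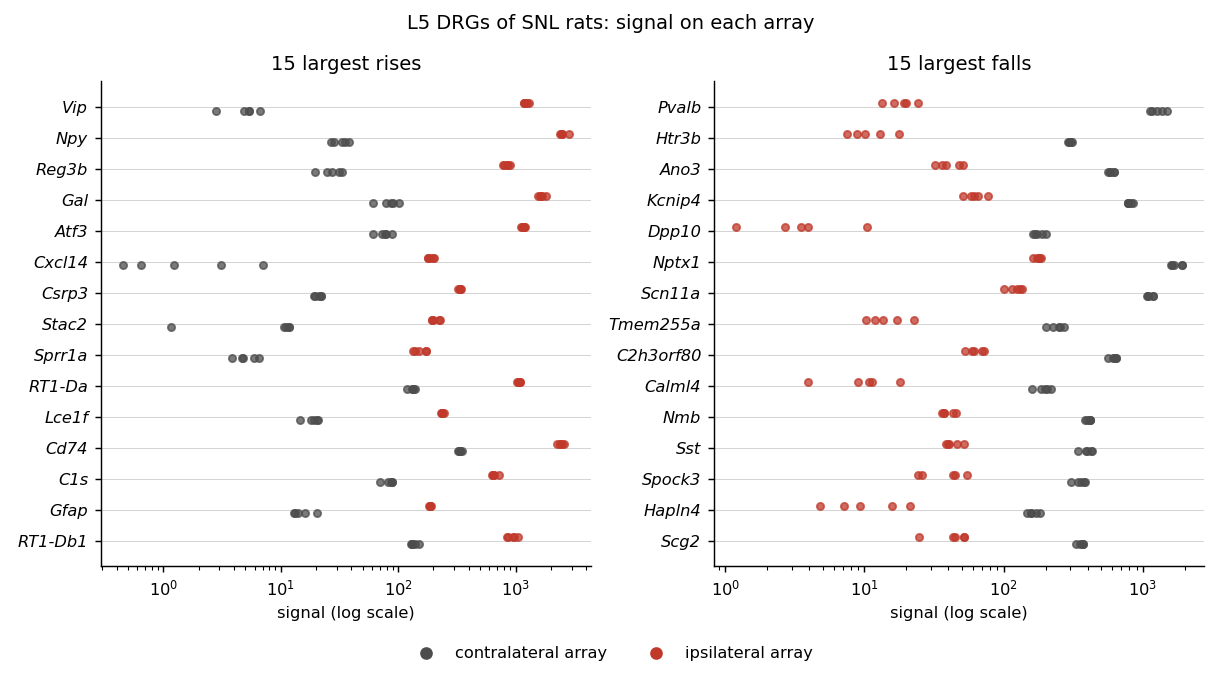
Signals of the 15 genes with the largest rises and the 15 with the largest falls outside the muscle list (rows) on each of the 10 L5 arrays of SNL rats (points; horizontal axis, signal on a logarithmic scale), contralateral in grey and ipsilateral in red. Genes were drawn only where the sides did not overlap, and the distance between the sides can be read for Vip (5.00 ± 1.39 against 1222 ± 49.7) and Pvalb (1278 ± 147 against 18.6 ± 4.07).

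Vip and Npy were also higher on the ipsilateral side of the other 3 pairs of groups, and galanin was not in all of them. The mean Vip signal was 90.5 ± 15.6 in ipsilateral and 6.01 ± 1.41 in contralateral sham L5 (log2 difference 2.26, adjusted p = 3.70e-10), and 34.5 ± 11.1 and 7.501 ± 3.17 in SNL L4 (1.09, adjusted p = 4.55e-04). In sham L4 Vip measured 23.5 ± 3.31 on the ipsilateral and 2.61 ± 1.78 on the contralateral side. Npy measured 195 ± 9.66 in ipsilateral sham L5, 132 ± 12.3 in ipsilateral SNL L4 and 132 ± 13.6 in ipsilateral sham L4. Gal measured 108 ± 8.56 in ipsilateral and 110.1 ± 12.1 in contralateral sham L4, where the sides overlapped. Atf3 measured 112 ± 12.7 in ipsilateral sham L5 and 162 ± 54.7 in ipsilateral SNL L4, where the arrays ran from 83.3 to 226. The ligated L5 DRG stood above all of these. Pvalb and Scn11a were low in that group and in no other, with Scn11a at 747 to 1463 on every array of the 6 other groups.

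**Figure D3:**
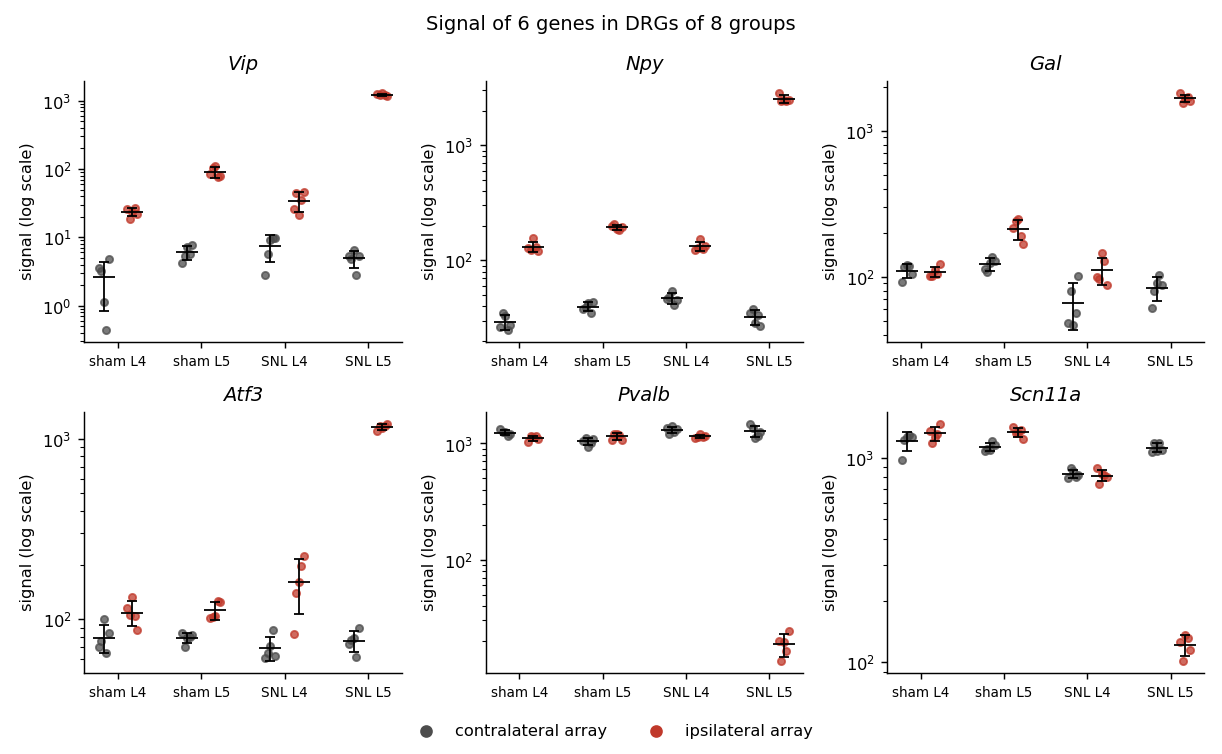
Signals of Vip, Npy, Gal, Atf3, Pvalb and Scn11a on all 40 arrays (points; vertical axis, signal on a logarithmic scale) by procedure, segment and side, with the group mean and SD (n = 5). Vip, Npy, Gal and Atf3 are highest and Pvalb and Scn11a lowest in the ligated L5 DRG, and Vip and Npy are also higher on the ipsilateral side of the other 3 pairs of groups.

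Transcription factors of the injury response rose widely. Of 27 on the list, 20 rose, 7 of them at least 2-fold, and 2 fell. The list median was 0.39 beside 0.13 for all genes, and in sham L5 it was 0.20 beside -0.03. Jun, a component of AP-1 that cooperates with Atf3 in regrowth, measured 782, 680.2, 789, 779 and 744 on the contralateral and 1948, 1971, 2184, 1899.5 and 2028 on the ligated side (1.39 ± 0.06, adjusted p = 1.96e-12), with no overlap and a sham difference of 0.04. Sox11, a factor of axon regrowth, rose from 69.7 ± 15.6 to 228 ± 41.2 (1.51 ± 0.12) but by 1.03 in sham L5 as well. The bZIP repressor Nfil3 rose from 26.3 ± 7.29 to 98.4 ± 9.96, Myc from 37.8 ± 5.03 to 109.8 ± 6.61, the bone morphogenetic protein effector Smad1 from 257 ± 28.6 to 485 ± 46.3 and Cebpd, an acute phase factor, from 33.97 ± 12.5 to 85.7 ± 24.8. Klf6 rose by 0.57 ± 0.06. Stat3, the mediator of gp130 cytokine signals, rose by 0.38 ± 0.06, while in sham L5 it fell by 0.37. Klf7, a factor of sensory neuron development, went the other way and fell from 436 ± 26.96 to 209.7 ± 15.02 (-1.004 ± 0.06).

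Effectors of regeneration showed the same direction. Of 36 genes, 25 rose, 14 of them at least 2-fold, and 3 fell, with a median of 0.90 (sham 0.06). Growth-associated protein 43 (Gap43), a protein of growth cones, measured 1415, 1426, 1175, 1242 and 1231 and 2855, 2358, 2475, 2372 and 2438 (0.94 ± 0.07, adjusted p = 4.65e-09), without overlap. Arginase 1 (Arg1), which makes polyamine precursors, rose from 10.3 ± 2.31 to 147 ± 9.35 (2.63 ± 0.09). Flrt3, an adhesion molecule of neurites, measured 85.2, 69.5, 79.5, 83.1 and 79.6 on the contralateral and 501, 475, 465, 433 and 460.2 on the ipsilateral arrays (2.34 ± 0.06, adjusted p = 6.73e-15). The endopeptidase Ecel1, a marker of damaged neurons, was near 0 on the contralateral side (0.453 to 4.33) and at 50.1 to 75.98 after ligation. Tubulin and its regulators rose with Tubb6 (from 75.9 ± 6.52 to 358 ± 22.7) and stathmin 4 (Stmn4, from 108 ± 19.5 to 375 ± 36.3). Log2 differences were 1.96 ± 0.09 for the proteoglycan syndecan 1 (Sdc1), 1.80 ± 0.08 for the stress gene Gadd45a, 1.76 ± 0.07 for the retinoic acid carrier Crabp2, 1.65 ± 0.04 for annexin 1 (Anxa1), 1.39 ± 0.07 for the adhesion molecule Chl1 and 1.14 ± 0.06 for the chaperone Hspb1. The low-affinity neurotrophin receptor Ngfr fell from 441 ± 18.8 to 274 ± 13.2 (-0.65 ± 0.05).

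Cacna2d1, the calcium channel subunit that binds gabapentin, was measured apart. Its signals were 218, 195, 232, 213 and 200.4 on the contralateral and 501, 482, 521, 519 and 475 on the ligated side (1.18 ± 0.06, adjusted p = 1.64e-11), and every ligated DRG lay above every control. In sham L5 the difference was 0.01, and in L4 of the same SNL rats Cacna2d1 differed by -0.85. The tested difference between L5 and L4 was 2.03 ± 0.10 (adjusted p = 3.32e-14).

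Neuropeptides were counted as those that nerve injury can induce and those of intact neurons. Of 11 peptides that nerve injury can induce, 7 rose and 3 fell (median 0.69, sham 0.40). Of 13 peptides and granule proteins of intact neurons, 3 rose and 9 fell, 6 of them at least 2-fold (median -0.76, sham 0.01). Besides Vip, Npy and Gal, the peptide PACAP (Adcyap1) rose from 197 ± 18.2 to 543 ± 16.8 (1.39 ± 0.06) and cholecystokinin (Cck) from 8.99 ± 2.43 to 38.4 ± 4.03 (1.12 ± 0.11). The 3 falls of the first list were Nmb (-2.92), described among the largest falls, corticotropin-releasing hormone (Crh), which fell from 50.04 ± 17.9 to 18.9 ± 2.78 (-0.88 ± 0.16), and neuromedin U (Nmu), from 26.1 ± 7.24 to 8.95 ± 6.84 (-0.78 ± 0.17). Substance P is encoded by Tac1, which measured 951, 971, 834, 933 and 913 on the contralateral and 226, 186, 189, 192 and 205 on the ligated side (-2.12 ± 0.06, adjusted p = 2.13e-14), a clear separation. Of the calcitonin gene-related peptide genes, Calcb fell from 1222 ± 60.03 to 267 ± 21.1 (-2.13 ± 0.06) and Calca from 2929 ± 331 to 1054 ± 102 (-1.46 ± 0.08). A second probeset of Calca fell by 3.11 and another was not called, and in sham L5 Calca was higher on the operated side by 0.61. Chromogranin B (Chgb), a granule protein, fell from 437 ± 36.7 to 175 ± 31.2. Vgf, the precursor of several peptides that is induced by neurotrophins and injury, stood against its list and measured 75.1, 56.01, 63.8, 104 and 87.2 and 359, 360.1, 424, 400.03 and 481 (2.19 ± 0.12, adjusted p = 6.81e-11), while it differed by -0.77 in sham L5.

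Of 17 neuropeptide receptors, 3 rose, 4 fell and 10 were not called. The list median was 0.11, and it was -0.01 with quantile normalization and -0.01 with equal medians. The cholecystokinin receptor Cckbr went from 3.94 ± 2.20 to 52.1 ± 3.44 (1.78 ± 0.11), a rise from close to no signal. Ramp1, a subunit of the calcitonin gene-related peptide receptor, rose from 19.3 ± 1.36 to 68.9 ± 4.19 (1.27 ± 0.09).

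Sodium channel genes fell more often than they rose. Of 12 alpha and beta subunits, 6 fell, 4 of them at least 2-fold, and 3 rose, with a median of -0.53 (sham 0.22). Scn10a, the gene of Nav1.8, measured 311, 341, 324, 331 and 317 on the contralateral and 100.5, 86.03, 79.3, 84.3 and 68.5 on the ligated side (-1.78 ± 0.07, adjusted p = 2.79e-12). The sides were clearly apart. Scn1a, which encodes Nav1.1 of large neurons, fell from 653 ± 7.75 to 239.95 ± 12.1 (-1.39 ± 0.05), the beta subunit Scn4b from 1433 ± 99.5 to 597 ± 21.4 (-1.24 ± 0.05) and Scn9a, which encodes Nav1.7, from 798 ± 87.8 to 430.4 ± 37.6 (-0.86 ± 0.08). The beta subunit Scn3b rose from 89.03 ± 9.67 to 139.6 ± 12.9 (0.57 ± 0.08), and in sham L5 it differed by -0.48.

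The potassium channels formed one of the larger groups of falls. Of 48 pore-forming and auxiliary subunits, 27 fell, 14 of them at least 2-fold, and 4 rose, none of them 2-fold (median -0.52, sham 0.01). Besides Kcnip4 and Dpp10, the auxiliary subunits Kcnab1 and Dpp6 fell from 877 ± 61.1 to 151 ± 19.1 and from 819 ± 39.1 to 279.98 ± 9.98. The A-type channel Kcnd3 (Kv4.3) fell from 308 ± 37.97 to 53.1 ± 6.52 (-2.23 ± 0.09), Kcna4 (Kv1.4) from 600.04 ± 26.7 to 178 ± 27.1 (-1.67 ± 0.08) and Kcna2 (Kv1.2), a channel of myelinated axons, from 411 ± 9.61 to 164 ± 11.5 (-1.25 ± 0.06). The modifier subunits Kcns3 and Kcns1 fell from 351 ± 17.3 to 55.8 ± 8.09 and from 112 ± 6.11 to 14.6 ± 4.41 (-2.36 ± 0.08 and -2.07 ± 0.10).

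Calcium, HCN and TRP channels gave fewer calls. Of 16 calcium channel subunits 2 rose and 4 fell, and the median of 0.06 became -0.01 with quantile normalization and -0.09 with equal medians. Cacna2d3, a sister subunit of Cacna2d1, fell from 340.5 ± 13.4 to 119 ± 14.3 (-1.41 ± 0.07) while Cacna2d1 rose. None of the 3 HCN pacemaker channels measured was called. Of 16 TRP and acid-sensing channels 2 rose and 4 fell (median 0.06, and -0.05 with equal medians). Trpv1, the capsaicin and heat receptor, measured 389, 435, 378, 399 and 409.9 on the contralateral and 102, 90.9, 85.5, 99.8 and 82.05 on the ligated side (-1.95 ± 0.06, adjusted p = 1.54e-13). Every ipsilateral value lay below every contralateral value, and in sham L5 the difference was -0.12.

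Ligand-gated channels and other receptors of sensory neurons moved in both directions. Of 58 ligand-gated channels and receptors 16 rose, 2 of them at least 2-fold, and 21 fell, 8 of them at least 2-fold. With equal medians 11 rose and 23 fell, and with quantile normalization 10 and 24. Their median of 0.03 was -0.10 with quantile normalization and -0.07 with equal medians. The serotonin receptor channel Htr3a, the partner of Htr3b, measured 110.1, 108, 95.9, 83.7 and 90.8 on the contralateral and 23.9, 6.61, 1.29, 1.64 and 0.400 on the ipsilateral arrays (-2.40 ± 0.19, adjusted p = 1.56e-08), with rat 4 the highest of the ligated side but still far under the controls. The kainate receptor subunit Grik1 fell from 179.6 ± 10.9 to 34.9 ± 7.56 (-1.95 ± 0.10), the nicotinic subunit Chrna3 from 189 ± 14.3 to 47.1 ± 7.25 (-1.70 ± 0.09), the GABA-A subunit Gabra2 from 700.1 ± 29.9 to 304 ± 32.4 (-1.17 ± 0.06) and the nociceptor ATP channel P2rx3 from 1048 ± 44.4 to 564 ± 26.4 (-0.88 ± 0.05). In contrast the GABA-A subunit Gabra5 rose from 51.6 ± 5.33 to 164 ± 15.97 (1.41 ± 0.08) and the alpha-2A adrenoceptor Adra2a from 21.3 ± 4.74 to 68.3 ± 8.23 (1.18 ± 0.11).

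P2rx4, an ATP channel studied in neuropathic pain, gave a small difference. Its signals were 45.1, 42.96, 44.9, 35.1 and 54.4 on the contralateral and 51.1, 51.6, 54.2, 75.1 and 64.5 on the ligated side. The sides overlapped, and the log2 difference was 0.31 ± 0.11, adjusted p = 0.0275. In sham L5 it was 0.39, and the difference between SNL and sham was -0.08 ± 0.15 (adjusted p = 0.718). The call was lost with quantile normalization, with equal medians, with the methods' t-test, and without contralateral rat 18, ipsilateral rat 18 or ipsilateral rat 48. The study listed a single P2rx4 probeset and reported no significant regulation of it. The brightest probeset, used here, may be another.

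Genes that define sensory neurons were lower in the ligated DRG. Of 18 identity transcription factors, 13 fell and 1 rose (median -0.43, sham 0.11). Isl2 fell from 959 ± 84.1 to 214 ± 17.6 (-2.08 ± 0.07), Drgx by 2.01, Isl1 by 0.91 and the homeobox gene Hoxd1 from 92.03 ± 6.29 to 5.79 ± 2.18 (-2.31 ± 0.10), each without overlap. Pou4f1, which overlapped between sides, differed by -0.46 ± 0.13 (adjusted p = 0.00665). Of 22 neuron-wide genes 15 fell and 2 rose (median -0.49), while in sham L5 their median was 0.36. Rbfox3, which encodes the neuronal nuclear antigen NeuN, measured 393, 483, 400.1, 400.4 and 421 on the contralateral and 83.97, 88.5, 90.9, 102 and 81.02 on the ligated side (-2.05 ± 0.07, adjusted p = 1.94e-13). All ligated DRGs were low. The neurofilaments Nefl and Nefh fell by 0.74 and 0.68, Avil fell by 1.18, and Prph rose by 0.39 ± 0.08 with overlapping sides and a sham difference of 0.41, a call that was lost with equal medians. The summed signal of the 22 neuron-wide genes was 32305 ± 2951 on the contralateral and 25458 ± 1069 on the ipsilateral arrays, a ratio of 0.788 (exact permutation test, two-sided, p = 0.00794). In sham L5 this sum was 23135 ± 796 on the contralateral and 32363.5 ± 2988 on the ipsilateral side. The ratio there was 1.40, the other way (exact permutation test, two-sided, p = 0.00794). The sum of the ligated DRGs thus lay above that of contralateral sham L5, on arrays of another array series. The part of neuron number in the falls of single neuronal genes was not tested.

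Markers of neuron classes and of synapses fell as well. Of 14 markers of large proprioceptive and touch neurons 10 fell and none rose (median -0.61), and of 11 markers of non-peptidergic nociceptors 8 fell and 2 rose (median -0.82). Acp3, the fluoride-resistant acid phosphatase of non-peptidergic nociceptors, fell from 175 ± 17.1 to 48.4 ± 7.997 (-1.57 ± 0.09). Of 29 synaptic vesicle and release genes 15 fell, 5 of them at least 2-fold, and 3 rose (median -0.42, sham 0.15). The vesicular glutamate transporter Slc17a7 fell from 210.2 ± 12.8 to 37.05 ± 7.39 (-2.10 ± 0.09), the synaptobrevin Vamp1 from 762 ± 52.8 to 215 ± 26.01 (-1.75 ± 0.07) and the neuronal calcium sensor Vsnl1 from 658 ± 36.9 to 90.8 ± 8.94 (-2.66 ± 0.06).

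The receptors of the glial cell line-derived neurotrophic factor (GDNF) family did not move together. Gfra1, the GDNF receptor, rose from 215 ± 16.1 to 625 ± 43.1 (1.47 ± 0.06) and Gfra3, the artemin receptor, from 131 ± 15.2 to 353 ± 13.6 (1.33 ± 0.07). Gfra2, the neurturin receptor, fell from 556 ± 15.5 to 310.2 ± 45.8 (-0.82 ± 0.08), and their common signalling partner Ret fell from 1525 ± 59.4 to 923 ± 77.1 (-0.72 ± 0.06). In sham L5 these 4 differed by -0.16, -0.19, 0.54 and 0.34, in each case with the opposite sign. Of 24 neurotrophins and receptors 9 rose and 6 fell (median 0.14), shares near those of all genes (35.5% higher and 19% lower).

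Axon guidance genes were called in shares near those of all genes (35.5% higher and 19% lower). Of 49 measured, 17 rose and 11 fell, with 5 and 6 at least 2-fold, while with equal medians 9 rose and 19 fell (median 0.11, and -0.01 with equal medians). The semaphorins Sema6a and Sema3c rose from 104 ± 11.8 to 439 ± 49.5 and from 641 ± 14.5 to 1409 ± 92.6 (1.92 ± 0.08 and 1.11 ± 0.05), and netrin 1 (Ntn1) rose from 16.2 ± 4.60 to 52.8 ± 19.1. The Slit receptor Robo2 fell from 365 ± 13.6 to 77.1 ± 10.7 (-2.04 ± 0.07) and netrin G1 (Ntng1) from 339 ± 11.5 to 82.6 ± 11.4 (-1.86 ± 0.08).

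Macrophage genes rose together. Of 32 markers, 26 rose, 18 of them at least 2-fold, and none fell. The median was 1.17 beside 0.13 for all genes, and -0.23 in sham L5. Cd68, a lysosomal glycoprotein of phagocytes, measured 24.9, 19.9, 28.4, 21.9 and 20.8 on the contralateral and 112, 129, 149.7, 147 and 121 on the ligated side (1.91 ± 0.10, adjusted p = 3.50e-11). No values overlapped. Adgre1 (F4/80) rose from 48.1 ± 6.76 to 232 ± 18.2 (1.95 ± 0.08), the protease cathepsin S (Ctss) from 205 ± 16.4 to 742 ± 18.2 (1.78 ± 0.05), the growth factor receptor Csf1r from 36.7 ± 4.47 to 142 ± 9.999 (1.59 ± 0.08), Aif1 (Iba1) from 64.2 ± 10.7 to 190.1 ± 6.46 (1.37 ± 0.08) and lysozyme (Lyz2) from 650.1 ± 49.2 to 1684 ± 89.1 (1.35 ± 0.06). The summed macrophage signal was 7261 ± 789 on the contralateral and 12054 ± 584 on the ipsilateral arrays, a ratio of 1.66 (exact permutation test, two-sided, p = 0.00794). In sham L5 this sum was higher on the ipsilateral side too, by a ratio of 1.20 (exact permutation test, two-sided, p = 0.00794). The ratio was 1.20 in SNL L4 and 1.15 in sham L4.

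Complement and antigen presentation followed the same direction. Of 18 complement genes 13 rose, 9 of them at least 2-fold, and 2 fell (median 0.99, sham -0.02). C3, the central component, measured 22.3, 20.8, 18.96, 23.03 and 19.04 on the contralateral and 211, 219, 205, 212 and 221 on the ipsilateral arrays (2.64 ± 0.07, adjusted p = 1.09e-14), a tight and complete separation. The C1 inhibitor Serping1 rose from 143 ± 13.4 to 752 ± 9.96 (2.28 ± 0.06) and C1qa from 21.3 ± 4.75 to 102 ± 11.2 (1.67 ± 0.11), while Cd55, a membrane inhibitor of complement, fell from 771 ± 43.9 to 199.8 ± 11.5 (-1.87 ± 0.06). Of 22 antigen presentation genes 12 rose, 7 of them at least 2-fold, and 2 fell (median 0.45, sham 0.02). RT1-Ba, a class II alpha chain, rose from 208 ± 7.61 to 1365 ± 113 (2.62 ± 0.06), next to RT1-Da, RT1-Db1 and Cd74.

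Of 39 cytokines, chemokines and receptors 23 rose and 2 fell (median 0.42, sham 0.08). Colony-stimulating factor 1 (Csf1), a growth factor of macrophages and microglia, rose from 13.4 ± 3.85 to 61.1 ± 5.60 (1.40 ± 0.11), the chemokine Ccl6 by 1.38 ± 0.07 and Ccl2 by 0.53 ± 0.05 (sham -0.37), and the receptor Cxcr4 fell by 0.78. Of 30 interferon-stimulated genes 14 rose and 4 fell (median 0.23), beside 35.5% higher and 19% lower over all genes. With equal medians 11 rose and 7 fell, beside 3008 higher and 3980 lower of all 14217 genes. Gbp2 and Ifitm3 rose by 1.67 ± 0.07 and 1.28 ± 0.05, and the antiviral genes Rsad2 and Isg15 fell by 1.19 and 1.04. Of 20 lymphocyte markers 7 rose and 1 fell, a share of rises like that of all genes (35.5%), and with either other scaling 3 rose and 2 fell. Their sum differed by a ratio of 1.07 (exact permutation test, two-sided, p = 0.183). Their median of 0.12 was -0.03 with quantile normalization. Granzyme B (Gzmb), a product of cytotoxic cells, rose from 7.29 ± 2.49 to 50.8 ± 4.60 (1.52 ± 0.11). Of 11 neutrophil and red blood cell genes 9 fell and none rose. Their sum was 5023 ± 634 on the contralateral and 3675 ± 150 on the ipsilateral arrays. In the other 6 groups the mean sum ran from 1334 in ipsilateral to 3633 in contralateral SNL L4. The mean of the ligated DRG was therefore not below that of any other group, and the contralateral SNL L5 mean was the highest of all. S100a8, a neutrophil protein, fell from 543 ± 9.04 to 207 ± 14.7 (-1.33 ± 0.05), with a sham difference of 0.80 and one of -3.52 in SNL L4.

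Among glial genes, rises were most frequent on the Schwann cell list. Of 22 Schwann cell and myelin genes 16 rose and 1 fell, with a median of 0.46 (sham -0.14). Sox10, the factor of the glial lineage, rose from 109 ± 8.85 to 234 ± 28.4 (0.99 ± 0.08), Egr2, which drives myelination, from 556 ± 46.1 to 1306 ± 50.2 (1.21 ± 0.06) and Pou3f1, its partner, from 191 ± 34.3 to 440.4 ± 45.9 (1.15 ± 0.10). The myelin lipid enzyme Ugt8 fell from 743 ± 146 to 337 ± 61.7 (-1.10 ± 0.13). Of 15 genes of repair Schwann cells 6 rose and 4 fell (median 0.12, and -0.03 with quantile normalization). Of 25 satellite glial genes 10 rose and 8 fell (median 0.01, and -0.17 with equal medians). Both counts are to be read against 35.5% higher and 19% lower over all genes. Fabp7, a fatty acid carrier of satellite glia, fell by 1.31 while Gfap rose by 2.70. The basement membrane protein nidogen 1 (Nid1) rose from 629 ± 20.2 to 1343 ± 29.4 (1.07 ± 0.05). Gfap is also a marker of spinal cord, and it was the main member of that list to differ. Of 14 spinal cord markers 2 rose and 1 fell, and the list sum was 200.2 ± 18.7 on the contralateral and 387 ± 16.4 on the ipsilateral arrays.

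Connective tissue genes rose almost without exception. Of 49 fibroblast and extracellular matrix genes, 47 rose, 34 of them at least 2-fold, and none fell. The median was 1.33, and in sham L5 it was -0.21. Collagen III (Col3a1) measured 739.6, 759, 691, 741 and 749 on the contralateral and 3476, 2780.4, 3091, 2957 and 2931 on the ligated side (2.02 ± 0.06, adjusted p = 3.35e-14). Thrombospondin 4 (Thbs4), a matrix protein that acts at synapses and in pain, measured 158, 200.1, 153, 173 and 174 and 1086, 1053, 1189.9, 1109 and 1073 (2.58 ± 0.06, adjusted p = 3.73e-15). The sides of both genes were far apart. Collagen VI rose with Col6a1 (from 71.1 ± 8.87 to 480.3 ± 26.03) and Col6a3 (from 40.2 ± 5.55 to 315 ± 14.9), and the matrix glycoprotein fibronectin (Fn1) rose from 44.3 ± 2.48 to 285 ± 16.2 (2.32 ± 0.06). Periostin (Postn), a matricellular protein, rose from 21.4 ± 3.21 to 154 ± 12.1 (2.19 ± 0.09), and collagen I (Col1a1) by 1.33 ± 0.07, or by 1.97 on another probeset. Pdgfra, the receptor that marks fibroblasts, rose from 214 ± 12.2 to 649.9 ± 28.8 (1.53 ± 0.05). The summed signal of the list was 11787 ± 341 on the contralateral and 29728 ± 797 on the ipsilateral arrays, a ratio of 2.52 (exact permutation test, two-sided, p = 0.00794).

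Of 36 matrix proteases and inhibitors 21 rose, 9 of them at least 2-fold, and 4 fell. Gelatinase A (Mmp2) rose from 71.7 ± 8.74 to 464 ± 16.97 (2.46 ± 0.07), the membrane protease Mmp16 from 12.3 ± 1.94 to 66.7 ± 6.90 (1.55 ± 0.10) and the inhibitor Timp1 from 305 ± 18.8 to 611 ± 24.1 (0.97 ± 0.05). Of 28 vascular genes 14 rose and 1 fell (median 0.28, sham -0.04). Tek, the angiopoietin receptor, rose from 86.8 ± 8.49 to 201 ± 19.3 (1.08 ± 0.08). Of 11 adipocyte markers 5 rose and 1 fell, with equal medians 2 rose and with quantile normalization 1, and their sum differed by a ratio of 1.14 (exact permutation test, two-sided, p = 0.0317).

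**Figure D4:**
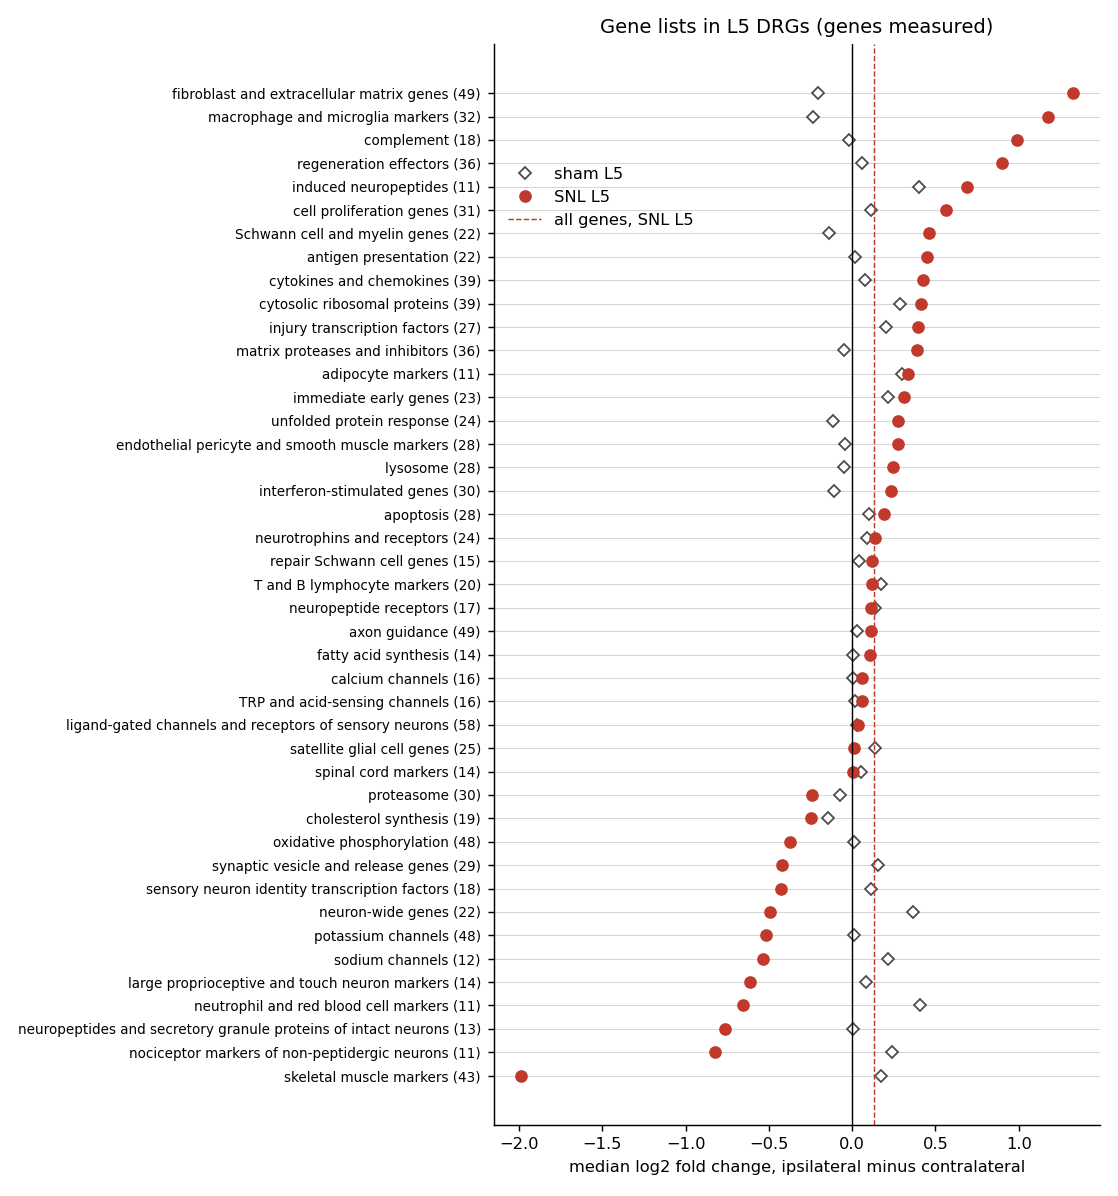
Median log2 difference, ipsilateral minus contralateral (horizontal axis), of each gene list with over 3 measured genes (rows, with the number of genes) in SNL L5 (red circles) and sham L5 (open diamonds), with the median of all genes in SNL L5 as a dashed line at 0.13. The medians in SNL L5 run from -1.99 for skeletal muscle to 1.33 for extracellular matrix genes, and those in sham L5 stay between -0.23 and 0.41.

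Genes of cell division rose. Of 31 proliferation genes 23 rose, 3 of them at least 2-fold, and none fell (median 0.57, sham 0.11). The spindle protein Prc1 rose from 28.9 ± 5.11 to 90.4 ± 11.1 (1.25 ± 0.10), the kinase Cdk1 from 17.98 ± 2.97 to 53.3 ± 10.99 (1.02 ± 0.12) and the topoisomerase Top2a from 26.7 ± 5.002 to 67.5 ± 8.48 (0.97 ± 0.11). Mki67, the Ki-67 antigen, rose from 166 ± 21.4 to 285 ± 16.7 (0.74 ± 0.08) but by 1.13 in sham L5, so that the SNL difference minus the sham difference was -0.40 ± 0.11 (adjusted p = 0.00413). The cell cycle inhibitor p21 (Cdkn1a) rose from 27.2 ± 6.58 to 175 ± 21.2 (2.15 ± 0.11). Of 28 apoptosis genes 12 rose and 4 fell (median 0.19), beside 35.5% higher and 19% lower over all genes. The pro-apoptotic Bim gene (Bcl2l11) rose from 50.6 ± 6.65 to 153 ± 12.6 (1.35 ± 0.08) and the anti-apoptotic Bcl2l2 fell from 359 ± 17.8 to 206 ± 18.2 (-0.76 ± 0.06). Of 23 immediate early genes 13 rose and 2 fell (median 0.31, sham 0.22), and with equal medians or quantile normalization 8 rose. Over all genes 35.5% were higher and 19% lower. In SNL L4 10 of these immediate early genes rose and 0 fell, with a median of 0.32. The L5 difference was called above the L4 difference for 3 of them and below it for 5. The phosphatase Dusp6, induced by ERK signalling, rose from 421 ± 25.4 to 919 ± 66.3 (1.10 ± 0.06), and Fosb fell by 0.99.

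Genes of protein turnover differed by list. Of 39 cytosolic ribosomal protein genes 37 rose and none fell (median 0.41, sham 0.28), and with equal medians 22 rose and 0 fell (median 0.20). Rpsa and Rplp0, of the small and the large subunit, rose from 925 ± 64.6 to 1696 ± 106 and from 729 ± 44.6 to 1121 ± 61.8. Of 30 proteasome genes 19 fell and 2 rose (median -0.24), with log2 differences of -0.85 ± 0.07 for Psma3 and -0.76 ± 0.10 for Psmd14. Of 28 lysosome genes 17 rose and 5 fell (median 0.25), with equal medians 11 and 8, and the lysosomal membrane protein Cd63 rose from 832 ± 95.9 to 2324 ± 175 (1.47 ± 0.07). Of 24 genes of the unfolded protein response 12 rose and 6 fell (median 0.28, sham -0.11), and with equal medians 10 rose and 9 fell. The lysosome and unfolded protein response counts stand beside 35.5% higher and 19% lower over all genes. The chaperone Hsp90b1 rose by 0.58 ± 0.05 and Creld2 by 0.75 ± 0.08, while the stress sensor Atf6 fell by 0.55.

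Energy and lipid genes were lower or mixed. Of 48 genes of oxidative phosphorylation, 42 fell and 1 rose, 1 of the falls at least 2-fold, with a median of -0.37 and a sham median of 0.01. Ndufb10 of complex I fell from 679.5 ± 47.9 to 347 ± 27.02 (-0.94 ± 0.06) and Cox7c of complex IV from 903 ± 66.5 to 579.6 ± 13.4 (-0.62 ± 0.05). Striated muscle is rich in these transcripts, and the contralateral muscle sum was 5.22 times the ipsilateral one, whose part in this list was not tested. Of 19 cholesterol synthesis genes 10 fell and 6 rose, none 2-fold (median -0.25, sham -0.14), and with equal medians 13 fell and 0 rose. Insig1, the sterol sensor, fell from 1324 ± 109.6 to 829 ± 45.6 (-0.66 ± 0.06). Of 14 fatty acid synthesis genes 5 rose and 4 fell (median 0.11, and -0.11 with equal medians), beside 35.5% higher and 19% lower over all genes.

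The SNL difference minus the sham difference is given for genes that were chosen by its size. On the higher side it was 3.79 ± 0.09 for Npy (adjusted p = 1.60e-20), 3.62 ± 0.12 for Vip, 3.55 ± 0.14 for Cxcl14, 3.37 ± 0.14 for Gal and 3.26 ± 0.10 for Atf3. On the lower side it was -5.92 ± 0.16 for Myl11 and, outside muscle, -5.36 ± 0.11 for Pvalb (adjusted p = 8.37e-22). In L5 against L4 of the same SNL rats, 2149 genes (15.1%) had a more positive and 1463 (10.3%) a more negative difference in L5. Over probesets 3444 lay above and 2509 below, and with equal medians 2782 and 3115. Vip differed between L5 and L4 by 4.80 ± 0.18 (adjusted p = 6.66e-17), Npy by 4.48 ± 0.11 and Pvalb by -5.04 ± 0.11. P2rx3 fell by 0.88 in L5 and by 0.98 in L4, and the difference between the segments was 0.10 ± 0.07 (adjusted p = 0.36). The SNL L4 and sham L5 arrays belong to the other array series. Neither segment nor procedure can therefore be told apart from array series in these values.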

How the data were processed

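The authors computed one signal per probeset with the MAS5 algorithm (version not given in the sources used here), scaled to the same trimmed mean on every array, and deposited these linear intensity values for 40 arrays, each of 1 DRG. Procedure, segment, side and rat were taken from the labels.

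Signals were transformed to log2(signal + 16) after 57 control probesets were left out, and 31042 probesets were tested. The 10 SNL L5 arrays were fitted with limma 3.58.1 under R 4.3.3 (lmFit, then eBayes with an intensity trend), without the rat as a block, since the methods of the study name an t-test for the mRNA arrays without stating that it was paired (their paired test was of miRNAs). Differences against sham L5 and SNL L4 were tested in fits of 20 arrays. P-values were adjusted by Benjamini-Hochberg over all probesets. Of the probesets, 20826 have 1 gene symbol (20758 brought up to date by gene identifier), 436 have several and 9780 have none listed here. A gene was represented by its brightest probeset over the 10 SNL L5 arrays, and the same probeset served for the sham and L4 values. Single values were tested by exact permutation over arrays. The fits were tested on simulated data.

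Named are the 15 largest rises and falls outside the muscle list among called genes above the median signal with separate sides, the 5 largest differences each way from sham L5 and from SNL L4, members of the gene lists, and Cacna2d1, Scn11a and P2rx4, which the study measured. A further 7 genes were named after their values were seen. The comparison, lists and named genes were chosen with earlier results of these data known. Promoter windows are those of RefSeq for GRCr8, the first listed for each gene. Rat numbers in the labels pair the sides, which came from 1 animal, and the deviations of its DRGs from their group means correlated at -0.06 to 0.04. Alternatives were other offsets, scalings, tests and gene summaries, dim probesets left out, the rat as a block, the muscle level as a covariate and each array left out.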

Additional observations from a re-analysis of the deposited data

Results flagged for a closer look

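On 21 of 396 groups of 5 arrays 1 array stood apart from the other 4, and chance flags about 1 in 20 groups. On the ipsilateral side these were Npy at 2849 and Gap43 at 2855 (both high in rat 4), Htr3a at 23.9 (high in rat 4), P2rx3 at 517 (low in rat 4), C1s at 726 (high in rat 8), Prph at 1941 (low in rat 8), and Lce1f at 245 and Ret at 1059 (both high in rat 48). On the contralateral side Stac2 at 1.17, Tnni2 at 711 and Serping1 at 120 (119.7) were low in rat 4. Acta1 at 1078, Klf6 at 1275, Ecel1 at 4.33, Acp3 at 204 and Cox7c at 1021 were high in rat 8. Col3a1 at 691 was low and Col6a1 at 86.4 high in rat 9, and Pdgfra at 236 was high in rat 48. The contralateral sum of adipocyte markers was low in rat 8, at 262, and the bacterial control level was high on the ipsilateral array of rat 4, at 10.83 on the log2 scale.

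The difference between the sides was itself different in SNL and sham L5 for 13417 probesets, and in L5 and L4 of SNL rats for 5953. Against sham L5 the largest positive differences of differences, on the log2 scale, were 3.79 for Npy, 3.62 for Vip, 3.55 for Cxcl14, 3.37 for Gal and 3.26 for Atf3, and the largest negative ones -5.92 for Myl11, -5.75 for Tnnc2, -5.36 for Pvalb, -4.80 for Tnni2 and -4.54 for Myl1. Against L4 they were 4.80 for Vip, 4.48 for Npy, 3.87 for Reg3b, 3.43 for Gal and 3.11 for Cxcl14, and -5.83 for Myl11, -5.31 for Tnnc2, -5.04 for Pvalb, -4.49 for Tnni2 and -4.45 for Ckm. Of these, Myl11, Tnnc2, Tnni2, Myl1 and Ckm are on the skeletal muscle list.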

How the results depend on the processing

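With an offset of 1 in place of 16, 1158 and 553 genes were at least 2-fold higher and lower, and with an offset of 64 187 and 185, while counts of called probesets stayed within 1.5 times. Scaling to equal medians left 5221 rises beside 7584 falls and 302 and 540 genes at least 2-fold higher and lower. The methods' t-test at their threshold called 4125 higher and 3189 lower on linear signals, 4188 and 3199 on log2 values, and 8489 and 4838 on log2 values after Benjamini-Hochberg adjustment. A limit of at least 2-fold on probesets left 644 higher and 747 lower. With the rat as a block 9197 were higher and 5153 lower, 13982 of them called without it too, and the counts against sham L5 were 6295 and 6667 and against L4 3354 and 2455, so no count moved by over 1.5 times. Leaving out each array in turn gave 8607 to 9092 higher and 4934 to 5170 lower probesets, 461 to 485 and 350 to 359 genes at least 2-fold different, 6311 to 6485 and 6643 to 6972 probesets above and below sham L5, 3109 to 3206 and 2239 to 2357 above and below L4, and muscle ratios of 5.14 to 5.29. Without the 34 genes of contralateral excess, an alternative chosen after the data were seen, 321 genes were at least 2-fold lower and 472 higher. Of 3824 values of named genes under alternatives other than the muscle covariate, 3799 kept direction and side of the threshold. Myh1 turned, to -0.0048, with the mean over its probesets, which takes in the probeset that fell. Calls were lost with equal medians for Myh1, Sln, P2rx4 and Prph, with quantile normalization for Sln and P2rx4, and at the methods' threshold on log2 values for Sln, Cebpd, Crh, P2rx4, Pou4f1, Prph and Ntn1. Of 1848 list counts 1675 stayed within 1.5 times. Entering the muscle level as a covariate left 0 higher and 1 lower probesets and 0 genes at least 2-fold higher or lower (0 and 0). The level differed 5.22-fold between sides and little within them, so side and muscle level cannot be told apart, the median SE was 5.77 in place of 0.109, and the direction was the same for 56.4% of calls. Of the 183 named genes 121 lost their call and 62 turned. For genes that fell, the fitted difference became 17.80 for Htr3a, 15.64 for Cxcr4, 13.06 for Psmd14, 8.49 for Fosb, 7.70 for Scn10a, 6.93 for Gfra2, 6.75 for Kcns1, 6.28 for Nefh, 6.19 for Trpv1, 5.78 for Fabp7, 5.46 for Acp3, 5.10 for Gabra2 and 5.01 for Isg15. It was 4.67 for Cox8b, 4.38 for Chgb, 4.26 for Cacna2d3, 4.02 for Rbfox3, 3.95 for Drgx, 3.62 for Htr3b, 3.16 for Tnni2, 2.84 for Sst, 2.66 for Nmb, 2.65 for Isl1, 2.65 for Nefl, 2.63 for Cox7c and 2.61 for Pdlim3. Smaller positive values were 2.42 for Insig1, 2.34 for Ndufb10, 2.25 for Scn11a, 2.03 for Rsad2, 1.79 for Acta1, 1.59 for Tac1, 1.14 for Kcns3, 1.12 for Calca, 0.96 for Dpp6, 0.48 for Chrna3, 0.28 for Kcna2 and 0.057 for Ckm. For genes that rose, and for Tlx3, it became -10.01 for Vgf, -5.51 for Tlx3, -5.10 for Sox10, -4.05 for Jun, -4.001 for Cckbr, -3.82 for Mmp2, -3.74 for C1s, -3.57 for Sema6a, -3.32 for Pou3f1, -2.79 for Nfil3, -2.55 for Gabra5, -2.24 for Prc1, -2.10 for Col1a1 and -1.90 for Cd68. The other negative values were -1.84 for Ctss, -1.31 for P2rx4, -0.80 for Crabp2, -0.57 for Flrt3, -0.51 for Sema3c, -0.49 for Myc, -0.47 for Hsp90b1, -0.40 for Egr2, -0.28 for Nid1 and -0.17 for Sprr1a. The number of arrays limits the precision, and depth does not apply.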
